A study of Drosophila melanogaster with 3 samples.

Results

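Lilliputian (lilli), of the AF4/FMR2 family of proteins, is the scaffold of the fly's super elongation complex, in which the kinase P-TEFb and ELL proteins act on RNA polymerase II that has paused just downstream of a transcription start site (TSS). Promoters in flies fall into broad kinds. Many housekeeping genes carry short words such as the DNA replication-related element (DRE), bound by the factor DREF, or Ohler motif 1, bound by M1BP, while many regulated genes carry a TATA box, an initiator or GAGA repeats. Chromatin immunoprecipitation with sequencing was used to map a lilli-eGFP fusion with an anti-GFP antibody. The material was whole Drosophila melanogaster embryos of both sexes, 0 to 24 h old, from a transgenic line that stably expresses lilli with GFP at its C terminus. There was 1 group of 3 biological replicates, so nothing compares conditions, and embryos of all these ages and all their cell types are mixed.

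The peaks described here are weaker promoter peaks that nevertheless recurred in every replicate. They were selected on measured values, the authors' signal ranks. A peak of the pooled list had to lie outside the optimal list, which holds the 6970 pooled peaks with the highest signal. Its summit had to lie within 100 bp of a summit among the first 15000 rows of each of the 3 replicate lists, and within 500 bp of an annotated TSS. Of 30000 pooled peaks, 23030 were outside the optimal list, 6413 of these were at promoters, and 553 met the whole rule. Of the other lower-ranked promoter peaks, 1415 were found in 2 replicates, 2273 in 1 and 2172 in none. Asking for a summit in only a pair of replicates gave 1017 peaks without replicate 1, 935 without replicate 2 and 1122 without replicate 3. The 553 peaks are set below against the 3865 optimal promoter peaks and the 5860 other lower-ranked promoter peaks. The deposited lists hold no reads, so depth per replicate is unknown, and the deposited lists include background by design.

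Summit sequences of 4 of the 553 peaks show the words searched for below where they occur at the summit itself. Each is 61 bases of dm6 centred on the summit, 5′ to 3′ on the strand of the nearest gene, with the words of the search in capitals (the DRE in the first pair, Ohler 1 in the second pair). In the second sequence the capitals are overlapping DREs, in the third they also mark a run of A, and in the fourth the initiator word on the opposite strand overlaps the end of Ohler 1. The peaks were chosen as those with the highest pooled signal that hold the word and overlap no annotated UTR.
CG2202 (X, + strand): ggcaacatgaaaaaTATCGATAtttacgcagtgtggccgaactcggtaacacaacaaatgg
CG12081 (X, + strand): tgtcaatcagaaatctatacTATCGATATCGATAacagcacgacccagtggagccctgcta
CtsK1 (3L, + strand): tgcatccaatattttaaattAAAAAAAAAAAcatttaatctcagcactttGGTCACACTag
CG7326 (X, - strand): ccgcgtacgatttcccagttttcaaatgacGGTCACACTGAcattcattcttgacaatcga
The windows run over chrX:10848691-10848751, chrX:8588735-8588795, chr3L:13993793-13993853 and chrX:18863792-18863852. Their summits lie 36, 46, 408 and 46 bp upstream of the TSS, in the order of the sequences. The CG2202 peak ranked 11986, 5818 and 9571 in replicates 1, 2 and 3, and the CG7326 peak 12480, 6534 and 6167, so both ranked lowest in replicate 1.

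In the pooled list the 553 peaks ran from rank 6979 to rank 22537, with a median of 8223. Their signal, the authors' own value per peak, ran from 36.6 to 112 with a median of 95.6, against a median of 220 at optimal promoter peaks and 48.4 at other lower-ranked promoter peaks. Their −log10 q ran from 0.325 to 3.69, while 3469 of 3865 optimal promoter peaks stood at the highest value, 4.09. These values follow from the rule and are given as a description. Recurrence thinned out along the pooled ranking, which is also only a description, since the pooled list used the same alignments as the replicate lists. Of lower-ranked promoter peaks with pooled rank up to 8000, 51.6% were among the 553 (95% Wilson interval 47.1 to 56.0, over peaks), against 34.6% from 8001 to 9000, 21.9% from 9001 to 10000, 8.99% from 10001 to 12000 and 1.02% beyond that up to 15000.

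The replicates placed the same peaks at quite different ranks. The median rank was 9481 in replicate 1, 9267 in replicate 2 and 9224 in replicate 3, and the best of the 3 ranks fell in replicate 1 for 185 peaks, in replicate 2 for 178 and in replicate 3 for 190, a nearly even split. The gap between a peak's best and worst rank had a median of 4402 places and ran from 273 to 10558. Of the 553 peaks, 301 ranked below place 6970 in every replicate, 200 stood within it in 1 replicate, 48 in 2 replicates and 4 in all 3. The widest gap was that of betaTub56D, a beta-tubulin gene (chr2R:19449372-19449807), which ranked 14946, 4388 and 8391 in replicates 1, 2 and 3. NdufV3, a gene for a subunit of respiratory complex I (chrX:11349721-11350156), ranked 6252, 14468 and 4080. CG17597 (14756, 4670 and 9660), CG12182 (14813, 4782 and 12336) and lncRNA:CR45627 (14736, 7575 and 4976) made up the 5 widest gaps.

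**Figure D1:**
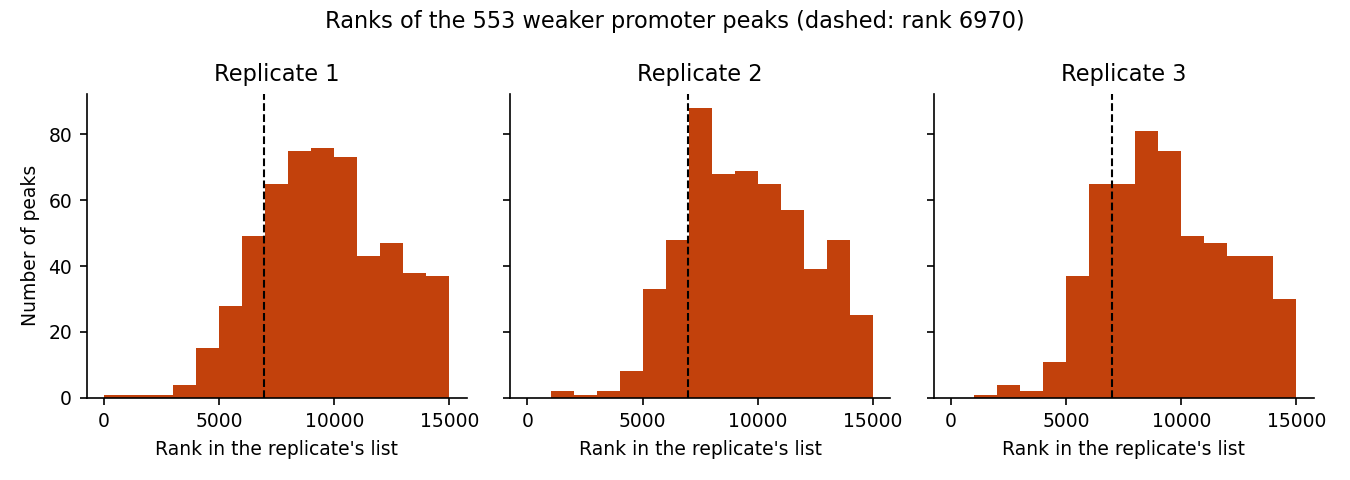
Number of the 553 weaker promoter peaks (y axis) by rank in each replicate's own list (x axis, bins of 1000 places), 1 panel per replicate. In each replicate most of the peaks lie to the right of the dashed line at rank 6970, with medians of 9481, 9267 and 9224.

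The peaks nearest to each edge of the set are named here as a description. The last optimal promoter peaks were those of lncRNA:CR44782, CG9801 and asRNA:CR44093, at pooled ranks 6967, 6968 and 6969. The first of the 553 were CG32264 (rank 6979), E(spl)mgamma-HLH, a basic helix-loop-helix repressor gene that responds to Notch (6986), and Rho1, a small GTPase gene (6987). At the replicate edge, Chchd2, lncRNA:CR44527 and Paip2 entered with worst ranks of 14967, 14966 and 14962. CG11396, Ptpmeg and emp stayed outside with worst ranks of 15018, 15022 and 15033.

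The 553 peaks fell into 3 kinds by what lay near them. At 400 of them (72.3%, interval 68.5 to 75.9) no TSS of the genes reached had an optimal summit. At 83 (15.01%) the gene had an optimal summit at another TSS, and 70 (12.7%, 10.1 to 15.7) lay within 500 bp of an optimal summit. Among other lower-ranked promoter peaks 13.6% (12.7 to 14.5) lay that near to one. None of the 553 was within 150 bp of an optimal summit. The smallest distance was 199 bp, and 50 of the 70 were within 218 bp. The width was 436 bp for 542 of the 553 peaks, so that 218 bp is the distance from summit to edge. The optimal neighbour was found in all 3 replicates for 57 of the 70, and ranked above the weaker peak in all 3 for 51.

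Among the 70 peaks beside an optimal summit, 20 ranked within 6970 in at least 2 replicates, against 32 of the remaining 483. The rule used these ranks, so the counts are a description. Of the 12 peaks with the best worst rank over the replicates, 6 had such a neighbour. The first was that of dnc, which encodes a cAMP phosphodiesterase (chrX:3255506-3256019, summit 106 bp upstream). It ranked 825, 1298 and 2218 in replicates 1, 2 and 3 but 7149 in the pooled list. An optimal summit 234 bp away ranked 135, 246 and 260 in the replicates. Its interval, chrX:3255506-3256002, starts at the same base, so both are summits of nearly the same stretch. The peak of car, which encodes a Vps33 homologue of vesicle transport (chrX:19565929-19566154), ranked 2245, 3604 and 2730, and 216 bp away lay an optimal summit of pooled rank 1000. CG17574 (4620, 2329 and 2348), CG44838 (5038, 6284 and 5518), Gp150 (4201, 7113 and 4336) and Ip259 (4432, 7771 and 4644) were the others. The first 4 of these 6 are the 4 peaks that stood within rank 6970 in all replicates. At each of the 6 the interval of the optimal neighbour overlaps that of the weaker peak, and at CG17574 the intervals are the same. They are also the same at CG6204 and CG8132, among the 70. Such peaks are further summits within the stretch of an optimal peak. Beyond pooled rank 12000, 8 of 14 peaks were beside an optimal summit, against 62 of 539 up to that rank. The lowest was at Gli (pooled rank 22537), which ranked 9979, 13474 and 13370 in the replicates.

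Away from optimal summits the peak with the best worst rank was that of Scm, which encodes the Polycomb group protein Sex comb on midleg (chr3R:9637405-9637840). Its summit was 12 bp before the TSS. It ranked 6810, 7445 and 7465 in replicates 1, 2 and 3. MESR6 (chr3L:19092393-19092828) ranked 5665, 7514 and 6886. Tis11, which encodes a zinc finger protein of mRNA decay (chrX:12659202-12659637), ranked 7552, 7218 and 4482. CG6465 (6489, 7837 and 7484) and CG34200 (7906, 7006 and 6988) also had no optimal summit at their TSSs, and alt (7388, 7098 and 7799) had one at another TSS. All of these sat between places 4482 and 7906 in every replicate. CG1738 (12188, 5602 and 6361), Pfdn1, a prefoldin subunit gene (14403, 6341 and 4843), and CG10674 (7376, 5761 and 9509) had pooled ranks of 6992 to 6998 with less even replicates.

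The summits of the weaker peaks lay less far upstream than those of optimal promoter peaks, and fewer of them were upstream. Their median summit lay 28 bp upstream, against 77 bp at optimal promoter peaks and 5 bp at other lower-ranked promoter peaks. Summits were upstream in 60.6% of the 553 (interval 56.4 to 64.6), against 77.5% (76.1 to 78.8) of optimal promoter peaks and 51.01% (49.7 to 52.3) of the other lower-ranked ones. The stretch from 50 bp upstream to 49 bp downstream held 32.4% of the 553 (28.6 to 36.4), against 26.5% of optimal and 21.3% of other lower-ranked promoter peaks, and that from 200 to 51 bp upstream held 26.4% (22.9 to 30.2), against 41.7% and 19.7%. With each replicate's own summits, 60.2% ± 0.522 (SD, n = 3) of the weaker peaks were upstream, against 76.9% ± 0.584 of optimal and 52.3% ± 1.51 of other lower-ranked promoter peaks. Here and below, a replicate's values cover only peaks with a summit in its list within 100 bp. These were all 553 weaker peaks in each replicate. For replicates 1, 2 and 3 they were 3709, 3731 and 3697 optimal and 3432, 3429 and 2914 other lower-ranked promoter peaks. The difference from optimal peaks was -16.7 ± 0.358 percentage points and that from other lower-ranked peaks 7.81 ± 1.04. Each had the same sign in all 3 replicates (exact sign-flip permutation, two-sided, p = 0.25, the smallest that 3 replicates allow). Here and below, every replicate was measured within 100 bp of the same pooled summits. Agreement among replicates and their small SD are therefore in part set by the matching.

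This position moved with rank. The upstream share was 83.4% among the first 1000 pooled ranks and 67.9% from 5001 to 6970, all optimal. Among the weaker peaks it was 65.0% (58.9 to 70.7) from 6971 to 8000, 57.7% from 8001 to 10000 and 55.3% from 10001 to 15000. Other lower-ranked promoter peaks at the same ranks had 60.2% (53.7 to 66.3), 55.7% and 54.5%. Within a range of ranks the intervals of these sets overlap. The bins of rank were chosen after the values were seen. Of the 70 peaks beside an optimal summit 71.4% (59.9 to 80.7) were upstream, against 59.0% (54.6 to 63.3) of the remaining 483.

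**Figure D2:**
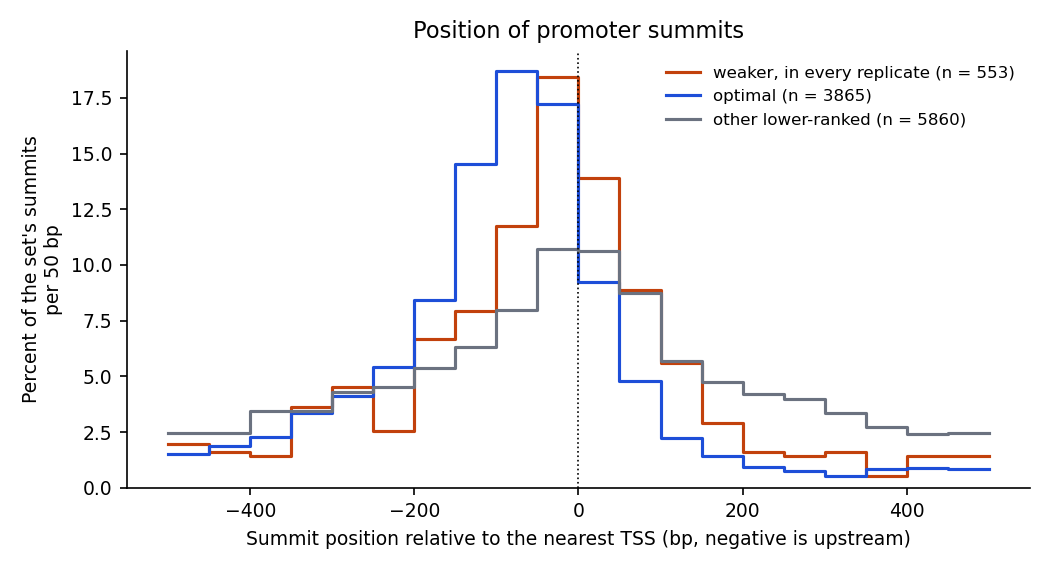
Percent of each set's summits (y axis) per 50 bp of position relative to the nearest TSS (x axis, negative is upstream), for the 553 weaker promoter peaks, the 3865 optimal and the 5860 other lower-ranked promoter peaks. The weaker peaks gather around the TSS with a median of 28 bp upstream, optimal peaks with a median of 77 bp upstream.

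By annotation, 41.05% of the 553 summits (37.0 to 45.2) lay between genes, 29.5% (25.8 to 33.4) in a 5' UTR, 19.9% in an intron and 3.44% in a coding exon. Optimal promoter peaks were between genes in 52.2% and in a 5' UTR in 19.9% of cases. Other lower-ranked ones had 28.6% and 28.2%, and 9.42% in coding exons. Divergent starts, where a TSS of the minus strand lies to the left of a TSS of the plus strand, both within 500 bp of the summit, held 19.7% of the 553 (16.6 to 23.2), against 36.4% (34.8 to 37.9) of optimal and 13.3% (12.5 to 14.2) of other lower-ranked promoter peaks. Per replicate the share was 19.6% ± 0.276, against 36.5% ± 0.144 and 14.6% ± 0.673 (SD, n = 3 each), with differences of -16.9 and 4.95 points of the same sign in all 3 replicates (exact sign-flip permutation, two-sided, p = 0.25). At equal pooled rank, from 6971 to 8000, the order of the lower-ranked sets differed from this, with 23.6% (18.7 to 29.3) of the weaker peaks and 29.0% (23.5 to 35.2) of other lower-ranked peaks at divergent starts. From 8001 to 10000 the shares were 15.4% (11.3 to 20.7) and 21.8% (18.6 to 25.3), and from 10001 to 15000 they were 19.7% (12.3 to 30.04) and 16.8% (15.05 to 18.7). The intervals overlap in all 3 ranges.

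GC content dipped at and upstream of the weaker peaks, less deeply than at optimal ones. In the 51 bp at the summit it averaged 39.6% for the 553, against 37.3% for optimal and 41.6% for other lower-ranked promoter peaks, and 43.8% at all annotated TSSs. With each replicate's own summits it was 39.6% ± 0.569, against 37.5% ± 0.506 and 41.6% ± 0.425 (SD, n = 3 each). The differences were 2.20 ± 0.276 points from optimal and -1.98 ± 0.306 points from other lower-ranked peaks, of the same sign in all 3 replicates (exact sign-flip permutation, two-sided, p = 0.25). At equal pooled rank the order was not the same throughout. The weaker peaks had 39.7%, against 39.6% at other lower-ranked promoter peaks, from rank 6971 to 8000, 38.8%, against 41.7%, from 8001 to 10000, and 41.4%, against 41.1%, from 10001 to 15000. Optimal peaks of rank 5001 to 6970 had 39.9%. Peaks upstream of their TSS had 37.7% and those downstream 42.6%, beside 36.4% and 40.5% for optimal promoter peaks. At 200 bp before the summit the weaker peaks reached 37.0%, against 36.8% at optimal peaks, while at 50 bp before it they had 39.1%, against 34.9%.

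**Figure D3:**
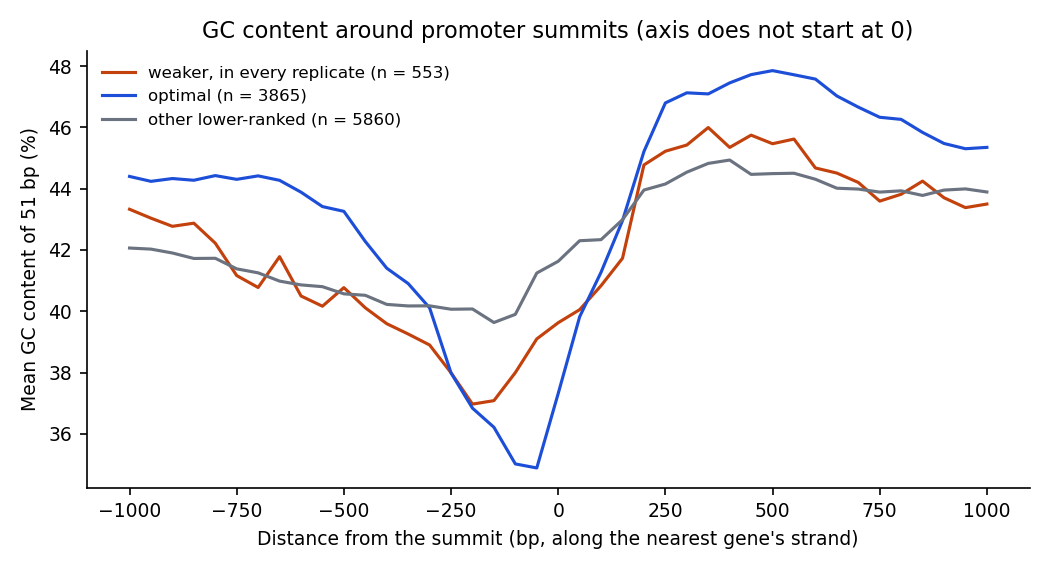
Mean GC content in 51 bp windows (y axis, in percent, not starting at 0) by distance from the summit along the strand of the nearest gene (x axis, in bp), for the same 3 sets. The weaker peaks have 39.6% at the summit, between 37.3% for optimal and 41.6% for other lower-ranked promoter peaks.

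A total of 12 words were searched on both strands within 100 bp of each summit. They were the DRE (TATCGATA), the Ohler 1 core (GGTCACACT), an E-box (CAGCTG), the GAGA-factor word (GAGAGAG), the TATA box (TATAAA), the Ohler 6 core (GTATNTTT), the Zelda word (CAGGTA), the GATA-factor word (TGATAA), the initiator (TCAGT), the Ets core (CGGAAG), a CA repeat (CACACACA) and a run of A (AAAAAAAA). Words may overlap, as the initiator on the opposite strand does with the end of Ohler 1. The DRE was in 51 of the 553 windows, or 9.22% (7.08 to 11.9), against 9.44% (8.56 to 10.4) of optimal and 3.91% (3.44 to 4.43) of other lower-ranked promoter peaks, and 5.45% of windows at all 23581 annotated TSSs. Ohler 1 was in 41, or 7.41% (5.51 to 9.90), against 4.24% (3.65 to 4.93) and 2.78% (2.39 to 3.23), and 3.71% at all TSSs. The DRE or Ohler 1 was in 85 of the 553 (15.4%), against 13.2% of optimal and 6.52% of other lower-ranked promoter peaks, and 7 peaks held both. These 7 were CtsK1, Gar1, tRNA:Gly-TCC-1-2, msl-3, a gene of the dosage compensation complex, CG6845, sax and eIF2alpha.

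Replicates moved these shares little, in part because the 3 replicates look at the same places. With each replicate's own summits the DRE was in 9.16% ± 0.276 of the weaker peaks, against 9.22% ± 0.246 of optimal and 4.27% ± 0.524 of other lower-ranked promoter peaks (SD, n = 3 each). The difference from optimal peaks was -0.0592 ± 0.494 points, higher in 2 of 3 replicates (exact sign-flip permutation, two-sided, p = 1). That from other lower-ranked peaks was 4.89 ± 0.458 points, higher in 3 of 3 (p = 0.25, exact permutation). Ohler 1 was in 6.57% ± 0.276, against 4.41% ± 0.207 and 3.23% ± 0.368, with differences of 2.16 ± 0.327 and 3.34 ± 0.535 points, higher in 3 of 3 replicates (exact sign-flip permutation, two-sided, p = 0.25 each). In all, 32 such comparisons were made, 16 measures against both sets. The exact test allows no lower value with 3 replicates, so no comparison passes a threshold, with or without adjustment.

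Both words varied with rank, also among optimal peaks. The first 1000 pooled ranks had the DRE in 5.48% and Ohler 1 in 1.01% of promoter peaks, and ranks 2501 to 5000 had them in 11.4% and 5.98%. From 6971 to 8000 the weaker peaks had the DRE in 12.2% (8.68 to 16.9) and other lower-ranked promoter peaks in 8.66% (5.67 to 12.99). For Ohler 1 these shares were 8.94% (5.98 to 13.2) and 2.60% (1.20 to 5.55), and their intervals do not overlap. From 8001 to 10000 they were 6.17% (3.71 to 10.1) and 5.49% (3.91 to 7.65) for Ohler 1, and 6.17% and 5.49% for the DRE as well. From 10001 to 15000 they were 6.58% (2.84 to 14.5) and 3.90% (3.07 to 4.96) for Ohler 1, and 9.21% (4.53 to 17.8) and 4.94% (3.99 to 6.10) for the DRE. The intervals overlap in both of these ranges, for both words. As above, the bins were chosen after the values were seen. That from 6971 to 8000 held 246 weaker and 231 other lower-ranked promoter peaks.

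**Figure D4:**
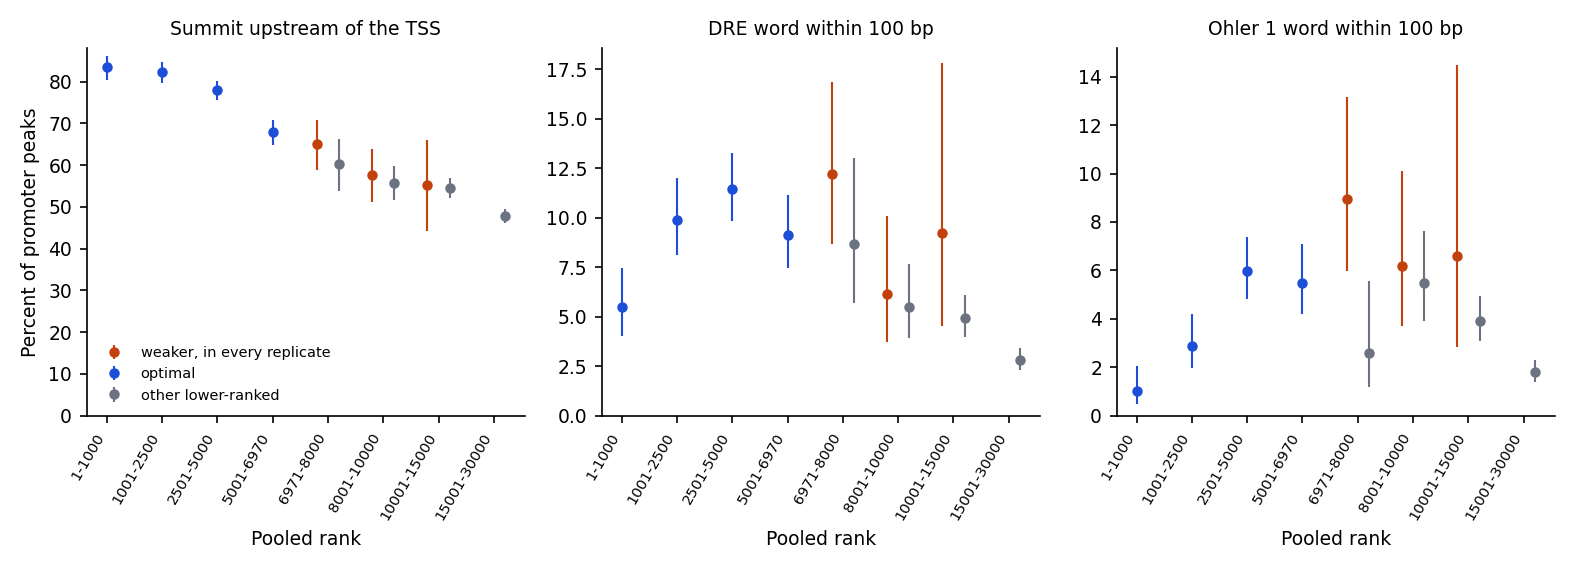
Percent of promoter peaks (y axis) with the summit upstream of the TSS, with the DRE and with Ohler 1 within 100 bp, by bins of pooled rank (x axis), for the weaker, the optimal and the other lower-ranked promoter peaks. Points are shares and bars 95% Wilson intervals over peaks. The upstream share is 83.4% in the first bin and 65.0% among the weaker peaks of ranks 6971 to 8000.

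Where the words lay also differed by position. Weaker peaks upstream of their TSS held the DRE in 11.6% (8.63 to 15.5) and those downstream in 5.50% (3.18 to 9.37), and Ohler 1 in 9.85% (7.10 to 13.5) and 3.67% (1.87 to 7.07). These intervals overlap for the DRE but not for Ohler 1, where they nearly meet. Peaks whose genes had no optimal summit held the DRE in 46 of 400 cases (11.5%), against 2 of 70 beside an optimal summit (2.86%), with intervals of 8.73 to 15.0% and 0.787 to 9.83% that overlap. Ohler 1 was in 8.25% (5.93 to 11.4) and 7.14% (3.09 to 15.7) of these. The median distance from summit to word was 41.5 bp for the DRE and 37.0 bp for Ohler 1, against 44.5 and 52.0 bp at optimal promoter peaks. At 845 lower-ranked peaks away from promoters that met the same replicate rule, the DRE was in 9 windows (1.07%, 0.561 to 2.01) and Ohler 1 in 0 (upper limit 0.453%).

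Ohler 6 was in 13.7% (11.1 to 16.9), against 11.2% (10.2 to 12.2) of optimal and 9.37% (8.65 to 10.1) of other lower-ranked promoter peaks, and GAGA in 5.61% (3.98 to 7.85), against 3.86% (3.29 to 4.51) and 4.85% (4.33 to 5.43). The initiator was in 36.3% (32.4 to 40.4), against 32.6% and 34.8%, the TATA box in 30.02% (26.3 to 34.0), against 32.5% and 26.6%, and the E-box in 10.3% (8.04 to 13.1), against 12.5% and 10.2%. With each replicate's own summits Ohler 6 was in 13.6% ± 0.542, against 11.04% ± 0.0512 of optimal and 9.89% ± 0.784 of other lower-ranked promoter peaks (SD, n = 3 each). The initiator was in 36.5% ± 1.30, against 32.4% ± 0.329 and 34.5% ± 0.323. Both words were more frequent at the weaker peaks than in either set in all 3 replicates (exact sign-flip permutation, two-sided, p = 0.25 for each of the 4 differences). GAGA was too, in 5.79% ± 0.788, against 3.83% ± 0.0625 and 5.10% ± 0.171 (p = 0.25 each in the same exact test). At all annotated TSSs Ohler 6 was in 8.85% of windows and GAGA in 4.40%. The initiator was in 42.2% (41.5 to 42.8) of those windows, which is above its share at the weaker peaks. The TATA box, in 31.5% ± 0.723, against 32.3% ± 0.522 and 27.3% ± 1.22, was more frequent than at optimal peaks in 1 of 3 replicates (p = 0.5 in the same exact test) and than at other lower-ranked peaks in 3 of 3 (p = 0.25, exact). The Zelda word was in 3.07% (1.93 to 4.87) of the 553, against 3.60% (3.05 to 4.23) of optimal and 5.02% (4.49 to 5.61) of other lower-ranked promoter peaks. GATA was in 13.6%, against 15.5% and 14.1%, and the Ets core in 4.34%, against 3.65% and 5.32%. The CA repeat was in 3.98%, against 3.001% and 5.36%, and the run of A in 13.2%, against 12.5% and 12.7%. No word of the 12 was found in 18.4% of them, against 18.3% of optimal and 20.9% of other lower-ranked promoter peaks.

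The 553 peaks lay within 500 bp of a TSS of 597 protein-coding genes. Of these, 170 also had an optimal summit and 427 had none, which is 3.06% of the 13945 annotated protein-coding genes. An optimal summit was at a TSS of 4371 genes (31.3%). Without replicate 1 the count of such genes was 744, without replicate 2 it was 643 and without replicate 3 it was 817. The 35 gene lists below are read against the 3.06%. The lists hold few such genes each, and their counts are given as a description. They were matched on gene symbols and do not hold every gene of a family or pathway.

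Genes of lilli's own machinery were among them. Of 25 elongation factor genes, 17 had an optimal summit and 2 had a weaker peak only. Eaf, which encodes a partner of ELL in the super elongation complex (chr2R:7407619-7408054), had a summit 18 bp upstream of its TSS and ranked 7165, 6307 and 12167 in replicates 1, 2 and 3. CycT, which encodes the cyclin of P-TEFb (chr3L:17557536-17557971), had a summit 34 bp downstream with a DRE and ranked 7222, 5513 and 13069. Both were within place 7500 in replicates 1 and 2 and low in replicate 3. Among 38 genes of general transcription factors and RNA polymerase II the gene was Mat1, of the TFIIH kinase, and among 29 Mediator genes it was MED26.

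Of 19 Polycomb group genes, 13 had an optimal summit and 3 (15.8%) a weaker peak only. Beside Scm these were pho, which encodes a DNA-binding protein that recruits Polycomb complexes (chr4:1181750-1182185, ranks 9946, 10814 and 6377), and Pcl, which encodes a subunit of a form of Polycomb repressive complex 2 (chr2R:18135115-18135550, ranks 8992, 6161 and 10123, with Ohler 1). Of 27 Trithorax group and remodeller genes 20 had an optimal summit and 2 a weaker peak only. They were trx, which encodes a histone methyltransferase (10691, 13996 and 6042), and Bap111, of the Brahma complex (7335, 10438 and 11953). The bromodomain gene fs(1)h had both, its weaker peak 285 bp upstream of a TSS. MBD-R2, with a DRE, was the gene among 24 insulator and housekeeping promoter factors.

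Metabolic and housekeeping lists were uneven. Of 89 genes of the respiratory chain and ATP synthase, 39 had an optimal summit and 7 (7.87%) a weaker peak only. They were the complex I genes ND-B14.5B, ND-B14.5A, ND-ACP and ND-B12, SdhB of complex II, UQCR-Q of complex III and ATPsynB. The list did not hold NdufV3, named above, which also had a weaker peak only and is not counted here. All 7 summits of the listed genes lay within 50 bp of a TSS. ND-B14.5B and ND-B14.5A held a DRE, ND-ACP and UQCR-Q Ohler 1. ND-B14.5A ranked 13188, 4795 and 12800, and UQCR-Q 9332, 8169 and 9642, so their replicates ranged from uneven to even. Of 93 cytoplasmic ribosomal protein genes, 70 had an optimal summit and 3 a weaker peak only, RpL39, RpL10Ab and RpL7A. RpS27A, RpL23 and RpL34b had both, with the optimal summit 200 to 228 bp away. None of 73 mitochondrial ribosomal protein genes, of which 47 had an optimal summit, had a weaker peak only.

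Signalling and patterning genes gave a few more. Of 23 Egfr and Ras pathway genes, 11 had an optimal summit and 3 a weaker peak only. The receptor gene Egfr (chr2R:21522298-21522733) had a summit 96 bp downstream of a TSS and ranked 5498, 12975 and 10021. S, which encodes Star, a protein of Egfr ligand export (chr2L:1077664-1078099), had Ohler 1 and ranked 13908, 4486 and 5093. That summit lay between divergent starts, 67 bp upstream of S and 66 bp upstream of ast, so the peak and its word belong to S no more than to ast. The kinase gene Raf (chrX:2339851-2340286) ranked 8699, 13472 and 7779. For each of the 3 genes the best and the worst replicate were more than 5000 places apart. Of 31 Dpp and dorsoventral genes, 7 had an optimal summit and 3 a weaker peak only, the sulfotransferase gene pip, the type I receptor gene sax and tok. Stat92E, the transcription factor gene of the JAK/STAT pathway (4153, 11384 and 9476), was the gene among 10 of that list. The homeotic gene lab (10339, 12060 and 13414) was the gene among 8, none of which had an optimal summit.

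Of 44 translation initiation factor genes 3 had a weaker peak only, eIF3j, eIF2Bepsilon and eIF2alpha. Pairs were found among 48 proteasome genes (Prosalpha2 and Prosbeta5), 41 cell cycle genes (ida and Rbf), 24 muscle genes (up and rst) and 33 vacuolar ATPase genes (Vha100-5 and VhaAC39-1). Single genes were found among 42 spliceosome genes (Prp6), 48 of DNA replication and repair (Gnf1), 18 of the Hippo pathway (jub), 29 of the insulin and TOR pathway (Ilp7), 29 of the Wnt and Hedgehog pathways (fu), 24 of neurons and glia (insc), 68 of exocytosis and vesicle coats (Arf1), 31 Rab GTPases (Rab19), 179 chemoreceptors (Gr21a) and 122 cuticle proteins (TwdlL). The Wnt and Hedgehog list did not hold fz4, which had a weaker peak only. No gene with a weaker peak only was found in 8 lists. Beside mitochondrial ribosomal proteins these were the lists of 35 nuclear pore and transport genes, 33 aminoacyl-tRNA synthetases, 24 segmentation genes, 18 Notch pathway genes, 27 heat shock and chaperone genes, 15 cell death genes and 51 odorant-binding proteins. In these lists the share with an optimal summit differed widely, from 3 of 51 odorant-binding protein genes to 12 of 18 Notch pathway genes and 10 of 15 cell death genes. N and Su(dx) of the Notch list, Hsc70-3, Diap1 and mRpL17 had both a weaker peak and an optimal summit. The Notch list did not hold E(spl)mgamma-HLH, named above, which had a weaker peak only.

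**Figure D5:**
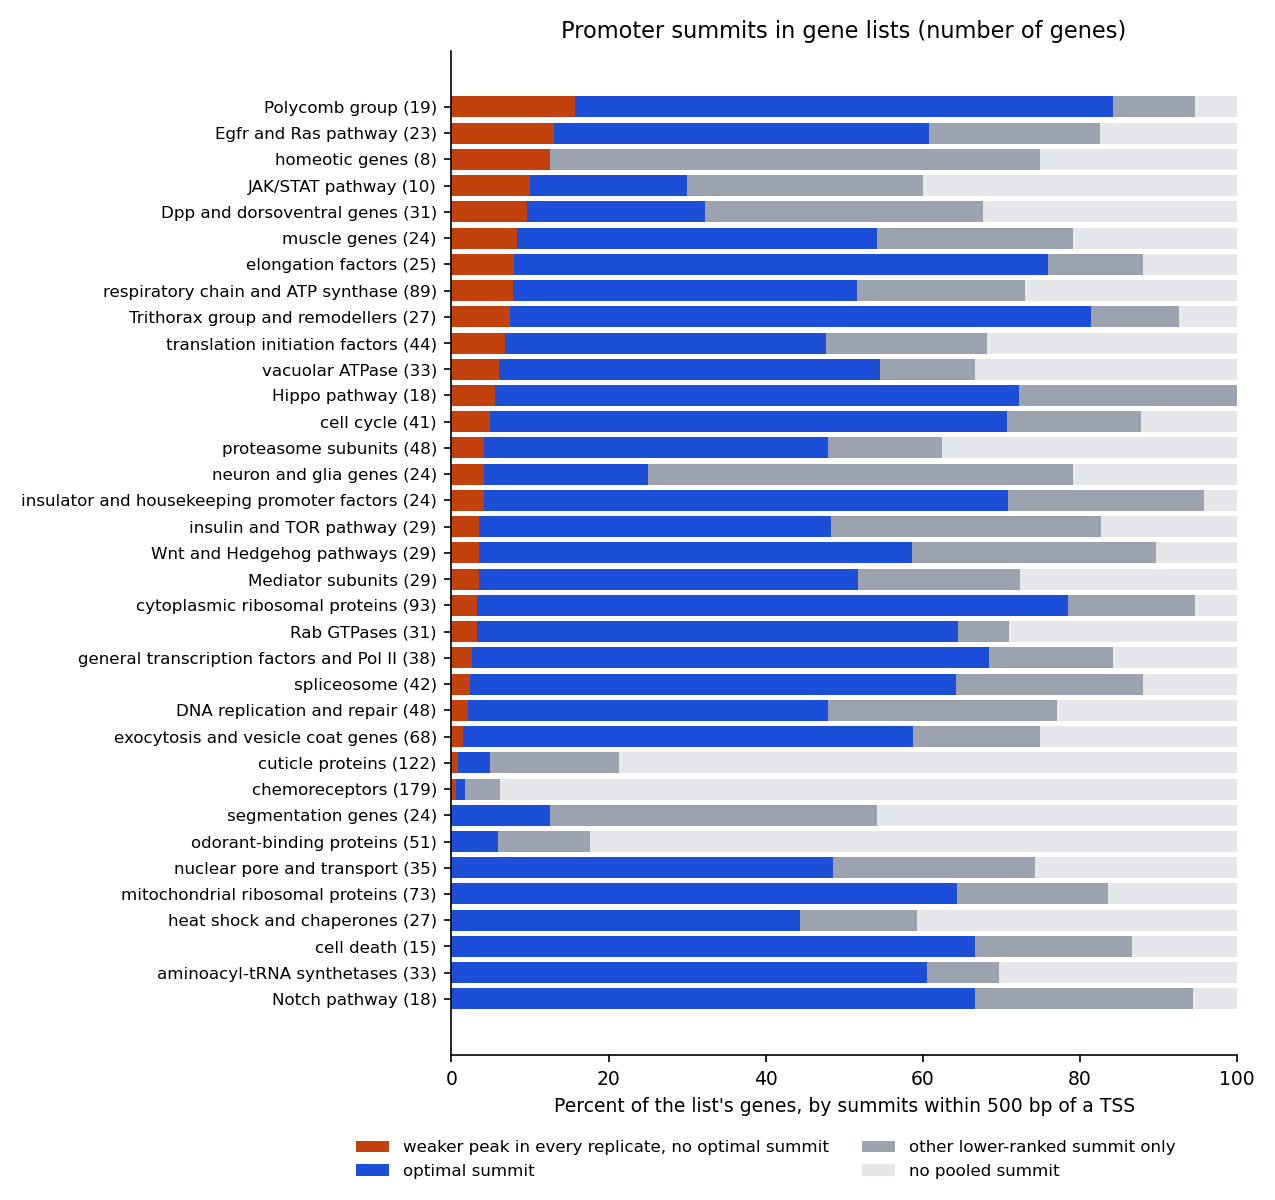
Percent of the genes of each of the 35 lists (x axis; number of genes in brackets) with a weaker peak found in every replicate and no optimal summit, with an optimal summit, with another lower-ranked summit only, and with no pooled summit within 500 bp of a TSS. The Polycomb group has 3 of 19 genes in the first class, and 8 lists have none.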

How the data were processed

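Per the file headers, meaning the text files deposited beside the lists, a replicate's list came from its own alignment set against a control, the pooled list used all 3 alignments together, and the optimal list was thresholded by irreproducible discovery rate. Chromatin fragments were 200 to 800 bp, per the labels. The sources used here do not name the aligner or the peak caller. The deposited signal and −log10 q columns are the authors' own values per peak, and the deposited summit offset gives the summit's place in the peak. Signal was used only to rank peaks within a list.

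Coordinates are 1-based on dm6. TSSs came from Ensembl release 115 on the same assembly (arms X, 2L, 2R, 3L, 3R and 4, transposable elements left out), sequences from the RefSeq copy of that assembly. Every peak end lay within its arm. A gene was assigned every summit within 500 bp of a TSS. Per replicate, position, GC content (51 bp) and words were measured at that replicate's summits and compared by exact sign-flip permutation over the 3 replicates. Peaks without a summit within 100 bp in a replicate's list were left out of that replicate's values. Intervals are 95% Wilson intervals over peaks, cover counting error only, and neighbouring peaks are not independent. The members and lists were chosen with earlier results of these data known. Named peaks are the 12 with the best worst rank over the replicates, the next 6 by pooled signal, the 5 with the widest range of ranks, 3 at each edge, and list members. Of the names put into the lists, 43 matched no annotated symbol and were left out. Alternatives covered the number of rows, distances, TSS set, peak middle, windows and each replicate left out. The steps were tested on simulated data. The software was Python 3.11.15 with scipy 1.17.1, pandas 2.3.3, numpy 2.4.6 and, for figures, matplotlib 3.10.9.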

Additional observations from a re-analysis of the deposited data

How the results depend on the processing

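The number of peaks depended on the rule itself: 113 with the first 10000 rows of each replicate, 935 with the first 20000, 268 with summits within 50 bp and 1602 within 250 bp, against 553. The median summit stayed upstream of the TSS under every alternative run. With 10000 rows, 56.6% were upstream (median signed distance -14 bp), the DRE was in 8.85%, Ohler 1 in 7.96%, 18.6% lay beside an optimal summit and 0.645% of protein-coding genes had such a peak only, against 3.06%. With 20000 rows these were 58.6% upstream, GC content 40.4%, DRE 7.17%, Ohler 1 6.10% and 4.93% of genes. Within 50 bp they were 63.1% upstream (-32.5 bp), DRE 10.4%, Ohler 1 6.72% and 1.44% of genes. Within 250 bp they were 56.6% (-23 bp), GC content 40.5%, DRE 6.87%, Ohler 1 5.31%, 44.2% beside an optimal summit and 5.02% of genes. A promoter window of 250 bp gave 58.9% (-18 bp), GC content 40.6%, DRE 11.2% and Ohler 1 8.99%, and one of 1000 bp gave 57.0% (-21 bp), DRE 7.32% and Ohler 1 5.88%. TSSs of protein-coding genes gave 62.8% (-32.5 bp), DRE 9.88% and Ohler 1 7.91%. The middle of the peak gave GC content 38.9%, DRE 8.93%, Ohler 1 7.04% and 16.7% beside an optimal summit. Words within 50 bp were found in 4.88% (DRE) and 4.34% (Ohler 1) of peaks, within 200 bp in 12.1% and 8.68%. An optimal summit within 1000 bp was beside 22.4%. Without 1 replicate at a time there were 935 to 1122 peaks, 56.5% to 59.4% upstream (-24 to -20 bp), GC content 39.8% to 40.9%, DRE 6.84% to 7.58%, Ohler 1 5.88% to 6.29%, 12.1% to 17.5% beside an optimal summit and 4.61% to 5.86% of genes. Leaving out peaks beside an optimal summit, chosen after seeing the data, gave 59.0% (-23 bp) and DRE 10.1%. Shifts were judged against the SD over replicates, which is small because the replicates share places, and the cause of each was not tested.

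No paired analysis was possible because there is only 1 group. Only 3 replicates were given, so no comparison over replicates can pass a threshold. Depth is unknown, background peaks are in the lists by design, and open chromatin was not separated from binding of lilli.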

Other observations

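The 553 peaks were spread over the arms. X held 114 of them (20.6%, 95% Wilson interval 17.5 to 24.2), against 16.7% (15.5 to 17.9) of optimal promoter peaks, 17.7% (16.8 to 18.7) of other lower-ranked ones and 16.6% of annotated TSSs. The fourth chromosome held 10 (1.81%, 0.985 to 3.30), against 0.466% (0.295 to 0.735), 1.25% (0.992 to 1.56) and 0.776%. These 10 were at pho, Gyf, apolpp, MED26, CaMKII, PMCA, anne, Rnf11, Asator and lncRNA:CR44023. The nearest TSS belonged to a noncoding RNA gene in 48 cases (8.68%), a snoRNA gene in 5 and a tRNA gene in 4.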
